A study of Mus musculus with 3 samples.

Results

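The Bcl2 family decides whether a cell keeps its mitochondrial outer membrane intact or opens it and dies. Pro-survival members (Bcl-2, Bcl-xL, Bcl-w and Mcl-1) hold the pore-forming effectors Bak and Bax in check. BH3-only proteins such as Bim, Bid, Bad, Bmf and Bik respond to stress and press their short BH3 helix into the groove of the pro-survival proteins or, for some of them, onto the effectors themselves. Hematopoietic stem cells are known to depend on Mcl-1, and Bim is a well-known sensor of cytokine withdrawal in blood cells. The genes examined were 4 pro-survival members (Bcl2, Bcl2l1 for Bcl-xL, Bcl2l2 for Bcl-w, and Mcl1), 1 effector (Bak1) and 5 BH3-only members (Bcl2l11 for Bim, Bid, Bad, Bmf and Bik). They were chosen by name as survival and death genes, and every probe carrying one of these names was taken, which gave 22 probes of 10 genes among 56600 probes of 37322 genes on the array.

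Expression was measured on 3 one-color Agilent arrays of long-term hematopoietic stem cells (LT-HSCs) from C57BL/6J mice, 1 array for each genotype. The control array is labelled WT. The AtmsKO label stands for deletion of Atm, which encodes the kinase that signals DNA breaks, and the Atmp38dKO label for deletion of Atm and of Mapk14, which encodes p38α. The mutant mice carried CAG-CreERT2 with Atm flox/flox, alone or with p38α flox/flox. They received tamoxifen (TAM) at about 5 weeks of age and were analyzed 4 weeks later per the series text, while the sample labels give an age of 11 weeks. Per the methods, the controls were TAM-treated floxed mice without the Cre transgene, so TAM was common to all groups while Cre was not. CAG is active in nearly all tissues, so the deletion was not limited to blood cells. How many mice gave the RNA of an array is not stated. The labels give the sort as CD150-positive, CD48-negative, Flt3-negative and CD34-negative cells of the LSK fraction of bone marrow, which lacks lineage markers and carries Sca-1 and c-Kit, and the array methods further exclude cells positive for CD41, a megakaryocyte surface protein. With 1 array in a group there was no spread between replicates, no test was possible, and each difference compares arrays rather than genotypes.

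Both targeted genes were read first. The Atm signals were 88.8 on WT, 16.3 on AtmsKO and 49.0 on Atmp38dKO at the 3′ probe, and 87.0, 23.9 and 86.5 at the other probe. The Mapk14 signals were 469, 558 and 616 at one probe and 295, 260 and 345 at the other. At both Atm probes the AtmsKO array was thus the lowest. The third array was clearly lower than WT at 1 of 2 Atm probes and at neither Mapk14 probe, and it is called the array labelled Atmp38dKO throughout. Which exons were removed is not given in the sources used here, and a probe outside them need not show the deletion. All 12 HSC marker genes of a fixed list (Kit, Ly6a, Procr, Mecom and others) were well above background on all 3 arrays. Of the surface proteins that the labels' sort excludes, the transcripts of all 3 (Cd34, Flt3 and Cd48) were also well above background on all 3, although a sort on protein does not set the level of a transcript. Of the 56600 probes, 68.9% to 77.7% were well above background. The third array was the brightest, with a 75th percentile of signal of 118 against 102 on WT and 96.2 on AtmsKO. All differences below are therefore log2 differences after each array was scaled to its own 75th percentile, whereas signals are given in the scanner's arbitrary units before that scaling. The error beside a difference is the scanner software's own error for the 2 spots, which covers the reading of a spot and neither mice, RNA nor labelling. Among probes printed 10 times, the spots of a probe had a median SD of 0.053 on the log2 scale on each array.

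A signal on such an array comes from the RNA that binds a probe of 60 bases, and the family is best read from the stretches that encode its shared parts. The following probes lie in coding sequence and are shown because the results on Bcl2, Bcl2l1 and Bcl2l11 turn on them. Their positions are those of the deposited files on mm9, and sequences are written 5′ to 3′ along the transcript. In the Bcl2 probe the capitals mark the adjoining glycine codons that close the BH1 region, part of the groove that receives a BH3 helix. In the Bcl2l11 probe they mark the glycine and aspartate codons at the core of the BH3 helix. The Bcl2l1 probes hold no capitals, the first reading the region of the BH4 helix near the start of the protein and the second the stretch between the BH1 and BH2 regions.
Bcl2, BH1 region, chr1:108608970-108609029, minus strand: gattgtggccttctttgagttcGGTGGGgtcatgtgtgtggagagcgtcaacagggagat
Bcl2l1, BH4 region, chr2:152655618-152655677, minus strand: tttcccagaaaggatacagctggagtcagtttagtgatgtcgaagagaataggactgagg
Bcl2l1, between BH1 and BH2, chr2:152655185-152655244, minus strand: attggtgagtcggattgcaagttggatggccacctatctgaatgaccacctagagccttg
Bcl2l11, BH3 region, chr2:127972893-127983988, plus strand: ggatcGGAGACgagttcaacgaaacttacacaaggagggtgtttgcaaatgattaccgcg
The Bcl2l11 probe covers 60 bases of RNA but its ends lie in different exons, many kb apart in the genome. It crosses a splice junction and can be bound in full only by RNA that joins the exon of the BH3 helix to the next one.

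Of the 22 probes, 20 were well above background on all 3 arrays, 1 (Bik) on 1 array and 1 (the 3′ probe of Bmf) on none. No member spot was saturated. A probe's brightness depends on its sequence, so the signals of members are compared between arrays for 1 probe and not between probes.

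**Figure D1:**
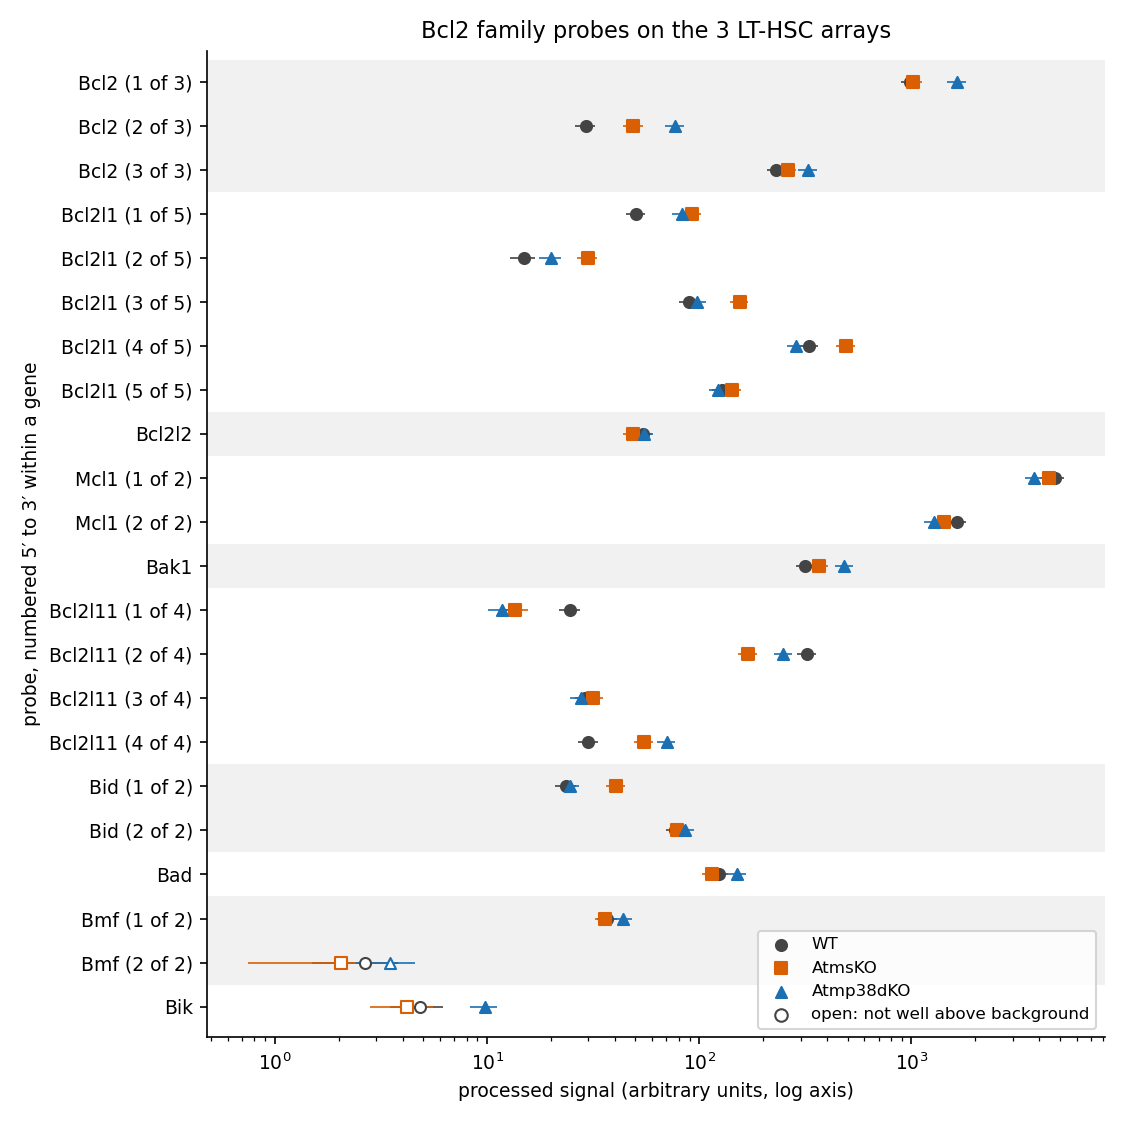
Processed signal (arbitrary units, log axis) of the 22 probes of the 10 Bcl2 family genes on the WT, AtmsKO and Atmp38dKO arrays, with probes numbered 5′ to 3′ within a gene, bars for the scanner's error, and open symbols where a probe was not well above background. The symbols of most probes lie close together, and Bik and the second Bmf probe sit at the background.

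The members had no common direction in any comparison. At the brightest probe of each gene, the median log2 difference of the members was 0.04 for AtmsKO against WT over 9 genes, -0.02 for Atmp38dKO against WT over 10 genes and 0.04 for Atmp38dKO against AtmsKO over 10 genes. Over all genes the same medians were 0.01, 0.02 and 0.00. Taken without sign, the median difference of the members was 0.11, 0.40 and 0.22 in the same order, beside 0.25, 0.26 and 0.24 over all genes. Members that differed by at least 0.5 in either direction numbered 2 of 9, 4 of 10 and 2 of 10, beside 24.8%, 26.7% and 23.5% of all genes. No member was at least 2-fold higher or lower on the AtmsKO array than on WT, where 3.86% of all 29043 genes were higher and 4.04% lower by that measure. None passed 2-fold on the array labelled Atmp38dKO against WT either, where 3.98% of 30669 genes were higher and 4.46% lower. In the comparison of the mutant arrays, no member was at least 2-fold higher and 1, Bcl2l1, was lower there by 2-fold or more, against shares of 30217 genes of 3.72% for higher and 3.64% for lower. These shares are too small for a count of 0 or 1 among 10 genes to be read as more or fewer than the background.

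Counted by probe, 1 of 20 member probes was at least 2-fold higher and none lower on AtmsKO against WT, beside 4.29% of all probes that were higher and 4.74% that were lower. On the array labelled Atmp38dKO against WT, 2 of 21 were higher and 1 was lower, beside 4.69% and 5.07% of all probes. Against AtmsKO, none of 21 was higher and 2 were lower on the array labelled Atmp38dKO, beside 4.39% and 4.07%. Differences larger than the scanner's error were seen at 12 of 20, 14 of 21 and 13 of 21 member probes in the 3 comparisons in the same order, beside 52.3%, 54.6% and 51.1% of all probes. The 3 comparisons share their arrays, so a high or low value on 1 array enters 2 of them.

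**Figure D2:**
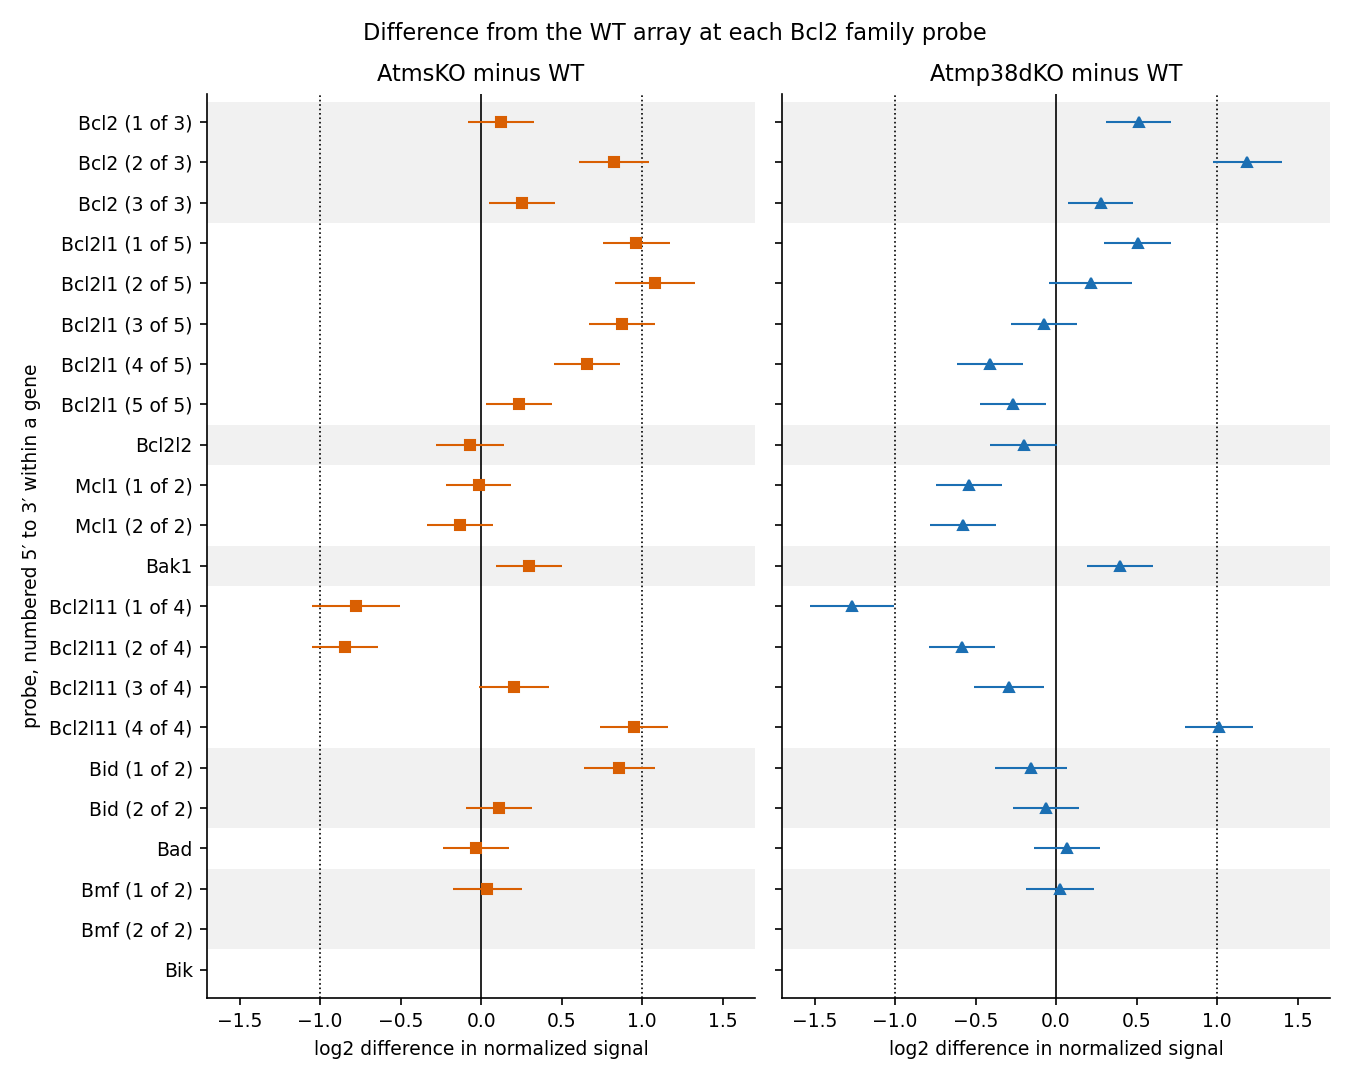
Log2 difference in normalized signal from the WT array at each Bcl2 family probe that was well above background on both arrays, for AtmsKO (left) and Atmp38dKO (right), with bars for the scanner's error and dotted lines at a 2-fold difference. The 5 Bcl2l1 probes lie above 0 on the left and spread over both sides of 0 on the right, and the 4 Bcl2l11 probes spread from below to above 0 in both panels.

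Among the pro-survival genes, Bcl2 encodes the founding member, which sits on the outer mitochondrial membrane and the endoplasmic reticulum. Its BH1 probe read 988 on WT, 1019 on AtmsKO and 1636 on Atmp38dKO. The third array thus stood above a close pair. After scaling, the log2 difference from WT was 0.12 ± 0.20 for AtmsKO and 0.51 ± 0.20 for Atmp38dKO, a 1.43-fold higher signal on the latter. The most 3′ Bcl2 probe (chr1:108434793-108434852), assigned to a different RefSeq transcript from the BH1 probe, read 231, 261 and 325. Its log2 differences from WT were 0.25 ± 0.20 and 0.28 ± 0.20. A dimmer probe 1.66 kb downstream of the BH1 probe in the genome (chr1:108607310-108607369), assigned to an Ensembl transcript, read 29.1, 48.9 and 77.1. It gave 0.82 ± 0.22 for AtmsKO and 1.19 ± 0.22 for Atmp38dKO, the latter a 2.28-fold higher signal. All 3 Bcl2 probes were therefore higher on both mutant arrays than on WT, by amounts that ranged from 0.12 to 1.19. Of all 1820 genes with 3 probes well above background on all arrays, 15.2% had all of them higher for AtmsKO and 16.4% for Atmp38dKO. For Atmp38dKO against AtmsKO the Bcl2 probes gave 0.39, 0.02 and 0.36 in the order above.

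Bcl2l1 encodes Bcl-xL, a pro-survival protein on which red cell precursors and platelets are known to depend. Its 5 probes fall into a 5′ group of 3 within 0.545 kb in the genome and a 3′ group 49.3 kb downstream. Both 3′ probes are assigned to a RefSeq transcript to which none of the 5′ probes is assigned. The most 5′ probe (chr2:152655730-152655789) read 50.1 on WT, 92.7 on AtmsKO and 82.6 on Atmp38dKO. The BH4 probe read 14.8, 29.7 and 20.0, and the probe between BH1 and BH2 read 89.0, 155 and 98.0. The AtmsKO array was the highest of the 3 at each of these. At the 3′ end, the brightest Bcl2l1 probe (chr2:152606404-152606463) read 329, 492 and 287, and it holds the letters AATAAA of a polyadenylation signal, as do 9.77% of all probes. The last probe read 128, 142 and 123. The files place it over the same bases as the brightest one (chr2:152606400-152606446) but at an earlier point of the transcript, so its position is uncertain. AtmsKO was again the highest at both, and here the array labelled Atmp38dKO was the lowest.

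For AtmsKO against WT, the log2 differences of the Bcl2l1 probes from 5′ to 3′ were 0.96 ± 0.21, 1.08 ± 0.25, 0.88 ± 0.21, 0.66 ± 0.20 and 0.23 ± 0.21. All 5 were higher on AtmsKO, a pattern found in 9 of the 183 genes with 5 probes well above background on all arrays (4.92%). For Atmp38dKO against WT they were 0.51 ± 0.21, 0.22 ± 0.26, -0.08 ± 0.21, -0.41 ± 0.20 and -0.27 ± 0.21, so that the first 2 were above 0 and the other 3 below. For Atmp38dKO against AtmsKO they were -0.46, -0.86, -0.95, -1.07 and -0.50, all lower, as in 12 of the 183 genes (6.56%). At the brightest probe the AtmsKO array was thus 2.10-fold above the array labelled Atmp38dKO. That 2-fold count was lost when the background was corrected by normexp (-0.85) and when the gene's probes were averaged (-0.77).

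Markers of the cells known to depend on Bcl-xL are given beside these values. All 6 megakaryocyte markers were well above background on all 3 arrays, none at 0, and their summed signal was 14.4 times the 75th percentile on WT, 29.9 on AtmsKO and 18.3 on Atmp38dKO. AtmsKO was the highest in the sum, in which Pf4 had the largest signal on each array, at 1020, 2366 and 1536. A summed signal weighs the brightest probes most, and not all genes of the list were highest on AtmsKO. Of the 6, 5 were above WT on AtmsKO with a median log2 difference of 0.69, and 4 were on Atmp38dKO with a median of 0.33. In log2 differences from WT for AtmsKO and Atmp38dKO, Pf4 had 1.29 and 0.38, Vwf 1.01 and 0.66, and Ppbp 0.87 and 0.28. Gp1ba had 0.52 and 0.98, Gp9 had 0.01 and 0.00, and Itga2b, which encodes the CD41 that the gate excludes, had -0.41 and -0.23. HSCs are themselves known to express some of these genes. The summed signal of the 6 erythroid markers was 1.89 times the 75th percentile on WT, 2.35 on AtmsKO and 2.60 on Atmp38dKO. Of the 6 erythroid genes, 5 were above WT on AtmsKO and all 6 on Atmp38dKO, with median log2 differences of 0.56 and 0.51, and Alas2, the heme synthesis gene of red cell precursors, had 1.72 and 1.80. The megakaryocyte and erythroid genes are named after their values were seen. The part of either list in the Bcl2l1 result was not tested. Fewer cells of a type and less RNA per cell cannot be told apart in a bulk sample.

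Bcl2l2, which encodes Bcl-w, showed no difference beyond the scanner's error. Its 1 probe (chr14:55506840-55506899) read 54.1, 48.9 and 54.7, which gave log2 differences from WT of -0.07 ± 0.21 for AtmsKO and -0.20 ± 0.21 for Atmp38dKO.

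Mcl1 encodes a short-lived pro-survival protein whose level depends on steady synthesis. Its probe near the 3′ end of the messenger RNA (chr3:95466855-95466914) read 4756 on WT, 4461 on AtmsKO and 3793 on Atmp38dKO. A further probe 194 bases downstream (chr3:95467049-95467108), which holds the letters AATAAA, read 1636, 1417 and 1273. WT and AtmsKO lay close together and the third array was the lowest at both, before its higher overall brightness was taken into account. After scaling, the log2 differences from WT were -0.02 ± 0.20 and -0.13 ± 0.20 for AtmsKO, and -0.54 ± 0.20 and -0.58 ± 0.20 for Atmp38dKO, the latter 1.46-fold and 1.49-fold lower. Against AtmsKO the array labelled Atmp38dKO was lower by -0.53 and -0.45. Both probes lower was common among all 4997 genes with 2 probes, at 23.7% for AtmsKO against WT and 26.1% for Atmp38dKO against WT. Bcl2 and Mcl1 thus differed from WT in opposite directions on the array labelled Atmp38dKO, by 1.43-fold and 1.46-fold at the brightest probe and in the same direction at every other probe of the gene.

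On the same array the HSC marker list was also lower. Of its 12 genes, 10 were below WT, with a median log2 difference of -0.25. Beside 4.46% of all genes, 2 of the 12 were at least 2-fold lower. These, named after their values were seen, were Fgd5 (signals of 198, 146 and 69.8) and Hoxb5 (91.4, 107 and 34.0), both genes whose expression is used to mark HSCs. The list's summed signal was 146 times the 75th percentile on WT, 148 on AtmsKO and 131 on Atmp38dKO. Whether this bears on Bcl2 or Mcl1 was not tested.

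Bak1 encodes Bak, the effector that sits on the outer mitochondrial membrane and forms pores once activated. Its 1 probe (chr17:27156807-27156866) read 316 on WT, 368 on AtmsKO and 483 on Atmp38dKO. Both mutant arrays were above WT, with log2 differences of 0.30 ± 0.20 and 0.40 ± 0.20. The other effector, Bax, which was not among the 10 genes, had a like pattern at both of its probes. They read 723, 856 and 1027, and 86.6, 112 and 136. Their log2 differences from WT were 0.32 and 0.45 for AtmsKO and 0.29 and 0.44 for Atmp38dKO. The largest of these Bak1 and Bax differences from WT was 1.37-fold.

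Bcl2l11 encodes Bim, a BH3-only protein that binds all pro-survival members, and its 4 probes did not move together. In order along the gene, the first (chr2:127954736-127955417) read 24.5 on WT, 13.5 on AtmsKO and 11.8 on Atmp38dKO. The second, 2.38 kb further (chr2:127957112-127957171) and the brightest, read 321, 169 and 249. WT was the highest at both, and the files assign both to 1 RefSeq transcript. The BH3 probe read 29.0, 31.7 and 27.6, with the 3 arrays close together. The probe at the 3′ end (chr2:127988051-127988110) read 30.0, 55.0 and 70.1, with WT the lowest, and the files assign it and the BH3 probe to a different RefSeq transcript.

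For AtmsKO against WT these probes gave log2 differences of -0.78 ± 0.27, -0.85 ± 0.20, 0.20 ± 0.22 and 0.95 ± 0.21 in the same order. For Atmp38dKO against WT they gave -1.27 ± 0.26, -0.58 ± 0.20, -0.29 ± 0.22 and 1.01 ± 0.21. The differences thus ran from a 2.41-fold lower to a 2.01-fold higher signal within 1 gene on 1 array. The stretch that encodes the BH3 helix lay between them, 1.15-fold above WT on AtmsKO and 1.22-fold below it on Atmp38dKO. The range over the 4 probes was 1.80 for AtmsKO and 2.28 for Atmp38dKO, and 12.5% and 6.08% of all 609 genes with 4 such probes had a range at least as wide. The median range over those genes was 0.91 and 0.95. A gene-level value for Bcl2l11 therefore depends on the probe. The brightest gives -0.85 and -0.58 from WT, and the mean of the 4 gives -0.12 and -0.28. The brightest probe, which also enters the medians by role, lies upstream of the BH3 probe and is assigned to a different RefSeq transcript. Whether the RNA it binds encodes the BH3 helix was not tested.

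**Figure D3:**
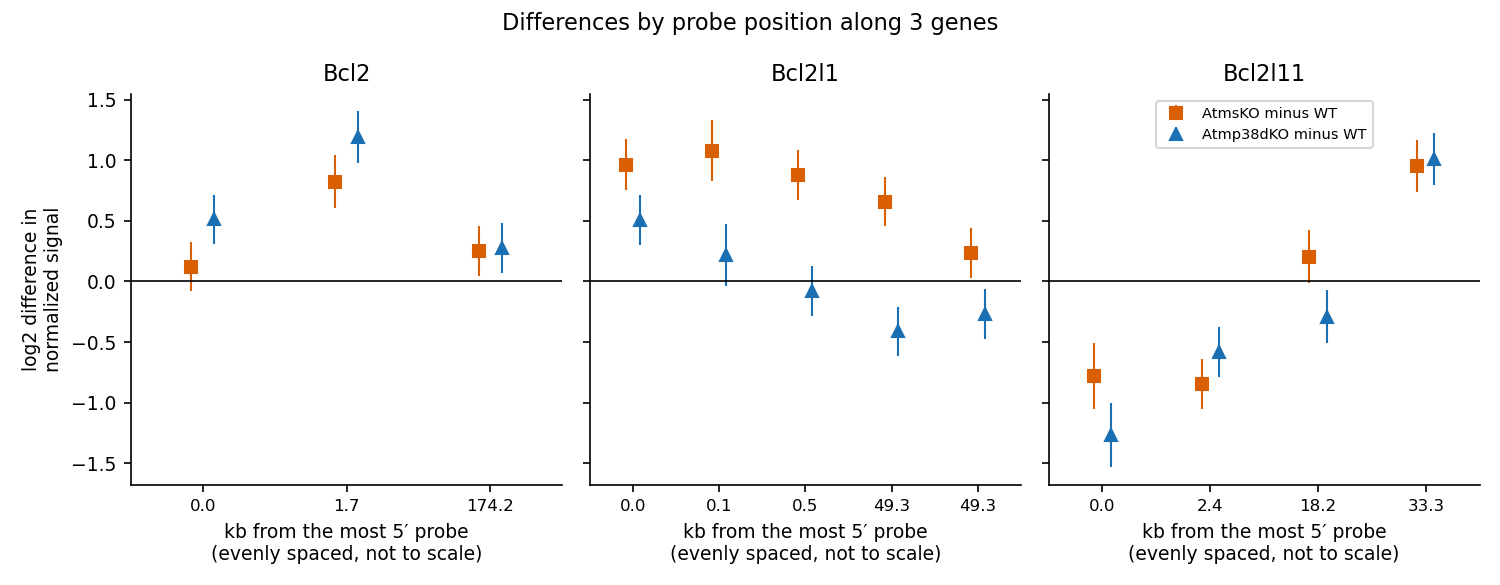
Log2 difference from the WT array at each probe of Bcl2, Bcl2l1 and Bcl2l11, placed in order from 5′ to 3′ and marked by the distance in kb from the most 5′ probe, for AtmsKO (squares) and Atmp38dKO (triangles), with bars for the scanner's error. The Bcl2l1 differences are higher at the 3 most 5′ probes than at the other 2, while those of Bcl2l11 run from -1.27 to 1.01.

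As a sign of RNA quality, the ends of transcripts were compared over all genes. Among 3524 RefSeq transcripts with probes at least 500 bases apart, the log2 difference of the 3′ probe minus that of the 5′ probe had a median of 0.00 for AtmsKO against WT and 0.05 for Atmp38dKO against WT. The middle 90% of transcripts ran from -1.19 to 1.22 and from -1.13 to 1.23. The part of RNA quality in the Bcl2l1 and Bcl2l11 values was not tested.

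Bid encodes the BH3-only protein that caspase-8 cleaves to link death receptors to mitochondria. Its 3′ probe (chr6:120843464-120843523) read 77.1 on WT, 78.9 on AtmsKO and 85.6 on Atmp38dKO, with log2 differences from WT of 0.11 ± 0.21 and -0.06 ± 0.21. An upstream probe assigned to an Ensembl transcript (chr6:120857038-120857097) read 23.5, 40.4 and 24.5. AtmsKO stood apart there, with 0.86 ± 0.22 against WT, while Atmp38dKO gave -0.15 ± 0.22. For Atmp38dKO against AtmsKO this probe was 2.02-fold lower.

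Bad encodes a BH3-only protein that survival kinases hold inactive by phosphorylation, and its RNA was level over the arrays. Its probe (chr19:7026323-7026382) read 124, 115 and 151, and the log2 differences from WT were -0.03 ± 0.21 and 0.07 ± 0.20. Bmf, whose protein responds to changes of the cytoskeleton and loss of attachment, read 36.9, 36.0 and 43.5 at the probe well above background (chr2:118358312-118358371), with differences of 0.04 ± 0.21 and 0.02 ± 0.21. Its 3′ probe (chr2:118354496-118354555) read 2.66, 2.05 and 3.49 and was not well above background on any array, so it gives no fold.

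Bik, a BH3-only protein of the endoplasmic reticulum, was at the edge of detection. Its probe (chr15:83374048-83374107) read 4.84 on WT and 4.18 on AtmsKO, not well above background, and 9.73 on Atmp38dKO, where it was. Against the lowest signal well above background on the other arrays (5.33 on WT and 6.12 on AtmsKO), Bik on the array labelled Atmp38dKO was at least 1.57-fold higher in comparison with WT and at least 1.30-fold higher in comparison with AtmsKO. Under normexp background correction both differences turned slightly below 0, to -0.03 and -0.09 on the log2 scale. The bounds rest on a few units of signal and the scanner's error of the difference was 0.46 and 0.52 on the log2 scale.

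By role, the 4 pro-survival genes had a median log2 difference of 0.05 for AtmsKO against WT and -0.31 for Atmp38dKO against WT at their brightest probes, with 1 of 4 above 0 in the latter. The BH3-only genes had medians of 0.00 over 4 genes and 0.02 over 5. Neither side of the family moved as a group, since some pro-survival and some BH3-only genes were above and others below WT in both comparisons.

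The other genes of the death pathway were taken from 5 lists. Of the other Bcl2 family genes, 14 of 16 had a probe and 11 were considered (well above background on at least 1 of the arrays) for AtmsKO against WT. In that comparison 4 were above 0 and 7 below, none was at least 2-fold higher, 2 were at least 2-fold lower, and the median was -0.10. For Atmp38dKO against WT, 7 of 12 were above 0, none was 2-fold higher, 1 was 2-fold lower, and the median was 0.14. Those past 2-fold were Bcl2a1d and Bcl2l14. Bcl2a1d, of the pro-survival A1 subfamily, read 16.8 on WT, and on both mutant arrays (2.60 and 2.89) it did not stand well above background, which gave at least 2.60-fold and at least 3.92-fold lower signals. The A1 genes are near-identical copies, so its probe cannot be tied to 1 of them. Bcl2l14 read 37.0, 13.9 and 29.8 and was 2.52-fold lower on AtmsKO. The BH3-only genes that p53 is known to induce were not past 2-fold, with Bbc3, which encodes Puma, at 596, 528 and 590 and Pmaip1, which encodes Noxa, at 22.5, 22.9 and 37.2. The log2 differences of Pmaip1 from WT were 0.10 ± 0.23 and 0.51 ± 0.22.

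Downstream of the mitochondria, all 13 genes of the caspase cascade were well above background on all 3 arrays and none passed 2-fold in any comparison. Their median was 0.08 for AtmsKO against WT and 0.02 for Atmp38dKO against WT. The 10 genes of the death receptor pathway were likewise all well above background with none past 2-fold, and with medians of 0.00 and -0.04. Among the 9 inhibitors of apoptosis the medians were 0.15 and -0.09, and 1 gene passed 2-fold. This was Naip6, which read 27.7, 83.8 and 63.9 and was 3.19-fold higher on AtmsKO than on WT and 1.98-fold higher on Atmp38dKO. Naip6 belongs to a cluster of near-identical genes, so its probe may read more than 1 of them.

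The last list held 4 genes that set the stability of the Mcl-1 protein, namely the ubiquitin ligase genes Huwe1, Fbxw7 and Btrc and the deubiquitinase gene Usp9x. The medians were -0.12 for AtmsKO against WT and -0.09 for Atmp38dKO against WT. Btrc, which encodes β-TrCP, was the 1 gene past 2-fold. Its brightest probe read 83.1, 28.5 and 19.9, a 2.76-fold and a 4.84-fold lower signal than on WT. A further Btrc probe read 21.2, 13.9 and 39.1, so that its log2 difference for Atmp38dKO against WT was 0.67 and opposite in sign. The remaining Btrc probe read 1.23, 5.67 and 10.1 and was well above background on Atmp38dKO only. It was there at least 1.63-fold higher than on WT, also opposite to the brightest probe. Over all 52 genes of the 5 lists, 47 were considered for AtmsKO against WT. Of these, 1 was at least 2-fold higher and 3 were at least 2-fold lower, beside 3.86% and 4.04% of all genes. For Atmp38dKO against WT the counts were 0 and 2 of 48, beside 3.98% and 4.46% of all genes. For Atmp38dKO against AtmsKO none of 47 passed 2-fold in either direction, beside 3.72% higher and 3.64% lower of all genes, and the median was 0.03.

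**Figure D4:**
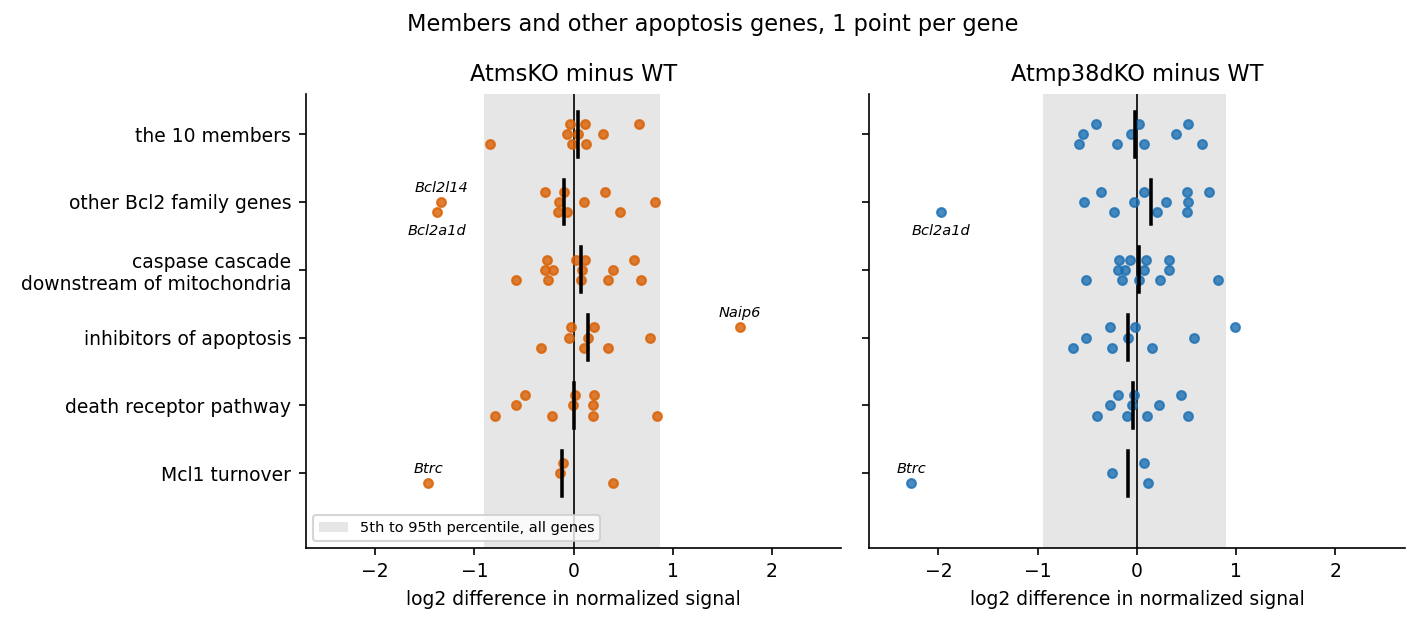
Log2 difference from the WT array at the brightest probe of each gene, for AtmsKO (left) and Atmp38dKO (right). Points are the members and the genes of 5 apoptosis lists that were considered, which leaves out Bik on the left. Black lines mark list medians and grey the 5th to 95th percentile of all genes. All members shown lie within the grey range in both panels, and the genes named are those past 2-fold.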

How the data were processed

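Total RNA of sorted LT-HSCs was labelled with Cy3 and hybridized to 1-color Agilent arrays, 1 for each of 3 genotypes, with groups as the sample titles give them. The arrays lay on 1 slide, so slide did not differ between the groups, while place on the slide could not be set apart from genotype. The deposited scanner files hold intensity values per spot, which the authors' contractor made with Agilent Feature Extraction 11.5.1.1. The software had subtracted the background from the processed intensity and detrended it within the array, a spot not above background being given a surrogate value, and no normalization between arrays was done. Its error comes from an additive term and a multiplicative term of 10%. Per the file headers, probe positions are those of mm9. The authors also deposited log2 values of the same arrays, which equaled log2 of the processed intensity minus a constant within 0.02 for at least 99.8% of probes, so they are on a log2 scale and carry no filter on background.

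Controls were left out, as were outlier spots (57 on WT, 75 on AtmsKO and 83 on Atmp38dKO), replicate spots were averaged, and 5 probes without a value on an array were dropped. A probe was taken as well above background when over 50% of its spots were. The measure was log2 of the processed intensity minus the 75th percentile of the array's non-control probes, which leaves relative levels only. Values that were not well above background were set to the array's lowest value of a probe that was, unless higher already. A gene was read at its brightest probe by the mean over the arrays, was considered in a comparison if 1 array or both had it well above background, and was counted at a 2-fold difference if so on the brighter array. With 1 array in a group, no test was made, and precision is limited by how few arrays there are. Members were found by the gene name in the files. Other genes were named through RefSeq accessions (32986 probes) in a table of GRCm38.p6, from which no position was taken, or else by the files. Named genes were the 10 members, Atm, Mapk14, Bax, Bbc3, Pmaip1 and each gene of the apoptosis lists past 2-fold. The members and lists were chosen with earlier results of these data known. Alternatives were normexp background correction with an offset of 50 (limma 3.58.1, R 4.3.3), quantile normalization, centring on the median of probes well above background on all arrays, the authors' log2 values, no floor, genes well above background on both arrays, and the mean over a gene's probes. The counting rule was tested on simulated data with planted differences well beyond 2-fold, so its behavior near 2-fold was not tested. Python 3.11.15 with pandas 2.3.3 was used.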

Additional observations from a re-analysis of the deposited data

How the results depend on the processing

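The 7 alternatives were run on the counts of members past 2-fold, on the median difference of the members and on each member. For Atmp38dKO against AtmsKO, the count of members lower by 2-fold or more went from 1 (Bcl2l1) to 0 under normexp background correction and to 0 with the mean over the gene's probes. The other counts stayed as reported under every alternative run. The medians of the members stayed between -0.07 and 0.07 under all alternatives and moved by less than the scanner's error, although for Atmp38dKO against AtmsKO the median changed sign, from 0.04 to -0.07 under normexp, to -0.07 with the mean over probes and to -0.02 over genes well above background on both arrays. For Atmp38dKO against WT it went from -0.02 to 0.01 with the mean over probes. Of 201 values of single members under alternatives, 12 moved by more than the scanner's error and 3 had the opposite sign. Averaging the probes moved Bcl2 for AtmsKO against WT to 0.40, Bid for the same comparison to 0.48 and Bcl2l1 for Atmp38dKO against WT to -0.01. For Atmp38dKO against AtmsKO it moved Bid from -0.17 to -0.59 and Bcl2l1 from -1.07 to -0.77. All 3 differences of Bcl2l11 moved as well. Bik for Atmp38dKO against WT went from 0.65 to -0.03 under normexp, and against AtmsKO from 0.38 to -0.09 under normexp and to 0.93 without the floor. The cause was not tested. No paired analysis was possible because a group consists of 1 array, and no array could be left out for the same reason. Signal over background limits Bik and the 3′ probe of Bmf, for which no level can be given on the arrays where they were not well above background.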

Other observations

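Marker genes of other blood and vessel cells were also read, as signals summed over a list in multiples of the array's 75th percentile, on WT, AtmsKO and Atmp38dKO in that order. The sums were 6.68, 6.86 and 7.81 for T cells, 6.06, 6.03 and 6.09 for B cells, 27.4, 32.8 and 32.2 for granulocytes, and 29.0, 25.7 and 24.3 for macrophages. They were 2.86, 2.92 and 3.09 for mast cells and 3.62, 3.91 and 2.81 for endothelium. Fcgr1 (macrophages), Ms4a2 (mast cells) and Cdh5 and Flt4 (endothelium) were not well above background on any array. Kdr of the endothelial list, named after its values were seen, read 5.88, 114 and 18.1. Its log2 differences from WT were 4.35 for AtmsKO and 1.41 for Atmp38dKO. Both rest on a WT signal close to 5.33, the lowest well above background on that array. Of the other endothelial genes considered, Cldn5 had 0.72 and 0.00 in the same order, Emcn -0.53 and -0.56, and Pecam1 -0.48 and -0.33. All 7 granulocyte genes were above WT on the AtmsKO array, with a median log2 difference of 0.37, and none reached 2-fold.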
